A study of Mus musculus with 16 samples.

Results

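The comparison described here set GFP-positive (GFP+) against GFP-negative (GFP-) cells sorted from mouse intestinal tumours labelled AKVPSL. It used 8 of the 16 libraries of the series, 4 GFP+ and 4 GFP-. These libraries were chosen by the genotype and sort given in the labels and by no measured value. The comparison itself was chosen with earlier results of these data known. RNA was extracted from flow-sorted cells and sequenced, and the reads of every gene were counted. The design text calls the sorted populations Lgr5+ and Lgr5-, so GFP is read here as the reporter of Lgr5. Every library shares the genotype label AKVPSL, whose letters the labels do not spell out. Neither an age, a strain, a host, a promoter behind GFP nor any gate besides GFP is given in the sources used here. The sorted cells may therefore include cells other than tumour epithelium. All 8 titles name the colon, whereas the tissue field reads small intestine for 7 libraries and colon for 1, GFP- replicate 1. Nothing in the labels ties a replicate to its own animal or tumour. A p-value here therefore rests on library-to-library spread, part of which may be technical.

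Lgr5 is a receptor for R-spondins, secreted proteins that strengthen WNT signalling at the cell surface. In the healthy gut it marks the stem cells at the base of the crypt, which divide and supply absorptive cells and the secretory goblet, Paneth, enteroendocrine and tuft cells. Intestinal tumours can also hold Lgr5+ cells and Lgr5- cells, and the Lgr5- state has often been described by genes of fetal or regenerating epithelium, among them Ly6a, which encodes the surface protein Sca-1.

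With M for 1e6 counts, GFP+ libraries held 24.876 to 41.602 M counts (mean 32.185 ± 6.978 M, SD, n = 4) and GFP- libraries 21.331 to 31.11 M (mean 25.284 ± 4.179 M). Mitochondrial genes took 2.436 ± 0.34% of the counts in GFP+ and 4.086 ± 1.73% in GFP- libraries. In a principal component analysis of 2000 genes, component 1 (82.3% of the variance) separated the sorts and component 2 (9.42%) parted replicates 1 and 2 from replicates 3 and 4 within both sorts. Counts are given below as CPM, counts per 1e6 after TMM scaling. Epithelial identity was shared by both sorts: Epcam, an adhesion protein of epithelial cells, stood at 1946.7, 1967.4, 1733.0 and 1791.0 CPM in GFP+ replicates 1 to 4 and at 1929.7, 1980.4, 1942.0 and 1768.4 CPM in GFP- replicates 1 to 4. The ranges overlap (log2 fold change -0.03 ± 0.09, SE, edgeR adjusted p = 0.786), and the sign of that small difference changed with the processing.

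A property of the genes moved with the sort. Relative gene length, taken from the ratio of deposited counts to deposited RPKM and set to 1 for the median gene, was related to the direction of the difference. Genes were split by length into 10 bins of near equal size. In the bin of the shortest genes 8.34% were higher and 38.1% lower in GFP+, with a median log2 fold change of -0.40, and in the bin of the longest 50.5% were higher and 12.1% lower, with a median of 0.41. The trend appeared library by library and was steepest in GFP+ replicate 3 and GFP- replicate 3. Whether it comes from RNA quality, library preparation or the cells was not tested. A fit with each library's length trend removed, called the length correction below, is therefore given beside the gene groups. It called 5794 genes in place of 7058. Of the 3173 genes called higher without the correction 1988 (62.7%) were still called, and of the 3885 called lower 2914 (75.0%). For 115 of the 7058 genes the fold change took the opposite sign.

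**Figure D1:**
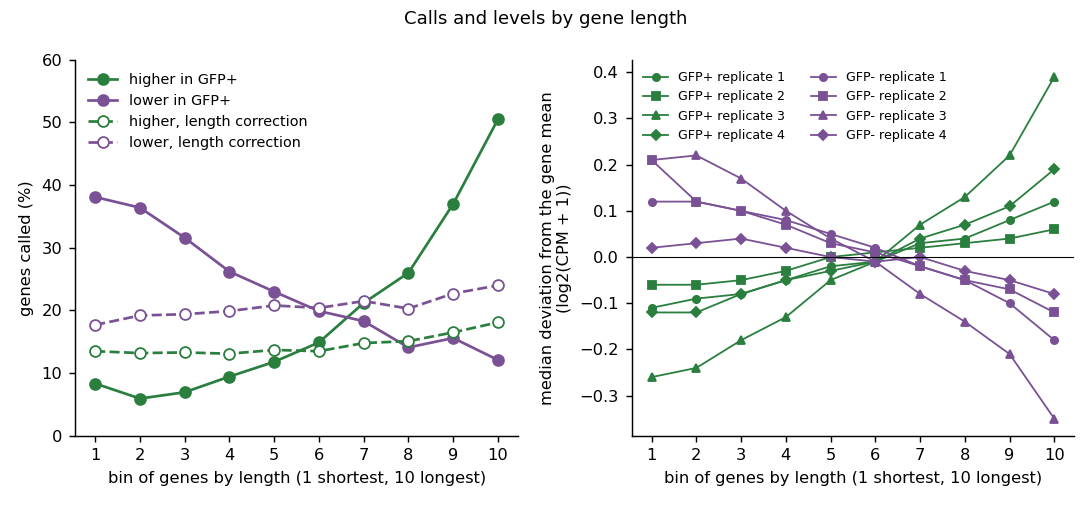
Left, percent of genes called higher or lower in GFP+ (y axis) in each of 10 bins of genes by length (x axis, 1 shortest), from the fit without correction (filled points) and with the length correction (open points). Right, median deviation of each library from the gene means (log2(CPM + 1)) over the same bins, 1 line per library. The uncorrected share of higher genes climbs from 8.34% to 50.5%, and with the correction it lies between 13.1% and 18.1%.

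Of 16516 genes tested, 7058 differed between GFP+ and GFP- cells (42.7%, at a Benjamini-Hochberg adjusted p under 0.05 in edgeR's quasi-likelihood test). GFP+ cells had higher levels of 3173 genes (19.2%) and lower levels of 3885 (23.5%). A difference of at least 2-fold was reached by 691 of the higher genes (4.18% of all genes tested) and 1813 of the lower genes (11.0% of all genes tested). The 4 libraries of the 2 sorts did not overlap for 6726 genes (40.7%), higher in GFP+ for 3108 (18.8%) and lower for 3618 (21.9%). These shares are the background for every gene group below: with 42.7% of all genes called, a group with a similar share of calls in both directions does not stand apart. The median log2 fold change over all genes was -0.02. In the words used below, a gene rose or fell when it passed this test, as GFP+ against GFP-.

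**Figure D2:**
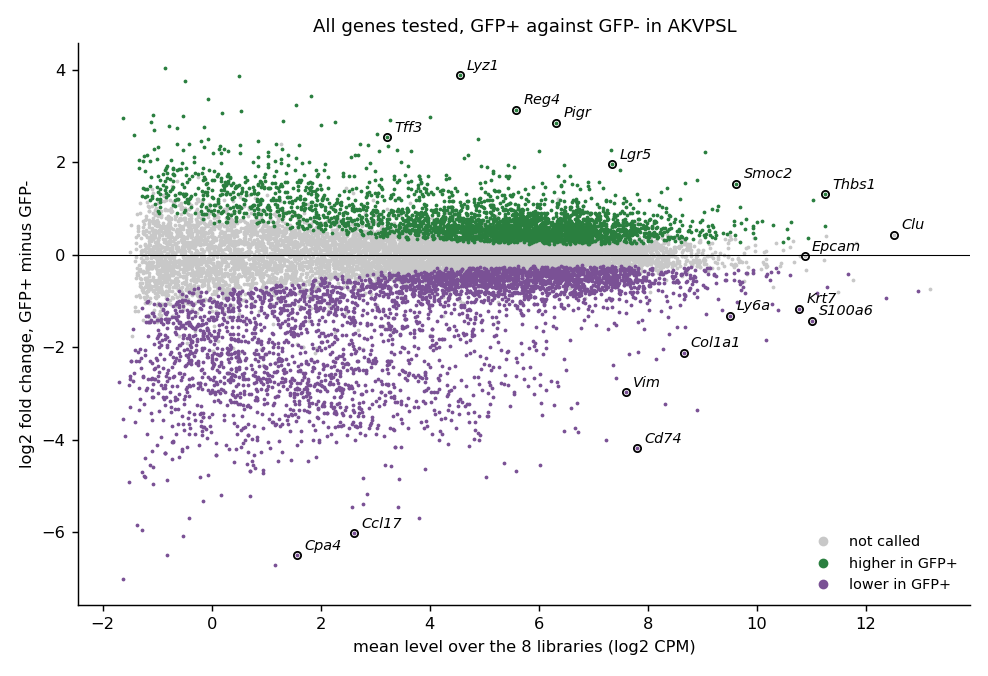
Log2 fold change, GFP+ minus GFP- (y axis), against mean level over the 8 libraries in log2 CPM (x axis), 1 point per gene tested, coloured by call. Falls reach further than rises: Ccl17 lies at -6.03, and Lyz1 lies at 3.88.

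The sort itself can be read from Lgr5 (Gene ID 14160), which lies on chromosome 10 of GRCm38 from 115450314 to 115587780. Its level was 269.9, 244.2, 269.2 and 251.7 CPM in GFP+ replicates 1 to 4 and at 71.8, 89.3, 47.3 and 58.8 CPM in GFP- replicates 1 to 4. Every GFP+ library lay above every GFP- library, and the log2 fold change was 1.95 ± 0.17 (SE, edgeR adjusted p = 6.29e-05). Because cells were sorted on its reporter, the difference checks the labels and is no separate result. Lgr5 RNA was present in GFP- libraries at 66.8 ± 18 CPM (SD, n = 4), against 258.8 ± 12.8 CPM in GFP+. Apc, Trp53 and Smad4, genes often altered in intestinal tumours, were read as well. Apc, the scaffold of the complex that destroys beta-catenin, was at 234.2 to 376.0 CPM in GFP+ and 113.4 to 193.1 CPM in GFP- libraries (0.92 ± 0.18, edgeR adjusted p = 0.00258; 0.37 with the length correction). Counts over a whole gene do not show small edits or a missing part of a transcript, so these values do not check the genotype. Trp53 did not pass the test (log2 fold change -0.29). Smad4, the shared mediator of TGF-beta and BMP signals, had a log2 fold change of 0.43 ± 0.12 (edgeR adjusted p = 0.017), which with the length correction was 0.07 and past no threshold. It also missed the threshold with replicates 3 and 4 alone (0.38).

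Smoc2 (chromosome 17, 14279490 to 14404790), a matricellular protein of crypt base cells, tracked the sort closely. Its levels were 1231.9, 1106.4, 1177.7 and 1194.1 CPM in GFP+ and 440.7, 383.8, 376.1 and 435.9 CPM in GFP- libraries. The sorts do not overlap and each has a narrow spread, with a log2 fold change of 1.53 ± 0.10 (edgeR adjusted p = 1.8e-05). In the crypt base stem cell list 15 of the 23 members tested rose and 1 fell, with a median log2 fold change of 0.52. The 15 include Lgr5, whose difference is no separate result because cells were sorted on its reporter. Prom1, a membrane protein also known as CD133, rose from 461.4 to 588.9 CPM in GFP- libraries to 984.0 to 1246.0 CPM in GFP+ (1.03 ± 0.11). Clca3b, a secreted relative of chloride channel regulators, stood at 13.2 to 20.9 and 3.21 to 5.22 CPM (2.00 ± 0.20). Lrig1, a brake on ERBB receptors, rose by 0.74 ± 0.10 on the log2 scale. Kcne3, a potassium channel subunit, was the member that fell, from 0.781 to 3.03 CPM in GFP- to 0.118 to 0.388 CPM in GFP+ libraries (-3.19 ± 0.55). Some textbook members showed no detectable difference: Ascl2, a transcription factor of Lgr5+ stem cells, stood at 21.4 to 29.5 and 16.7 to 30.3 CPM (0.20 ± 0.19, edgeR adjusted p = 0.42), and Sox9 at 204.4 to 260.9 and 213.9 to 247.4 CPM (0.00 ± 0.10, edgeR adjusted p = 0.99). Olfm4, a secreted protein of crypt base cells, was low in both sorts, at 0.474 and 0.544 CPM on average, and did not pass the test. With the length correction 12 members rose and 1 fell (median 0.40). Without GFP+ replicate 3, 11 rose and 1 fell (median 0.53). Members of this list are longer than most genes, with a median relative length of 1.48.

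**Figure D3:**
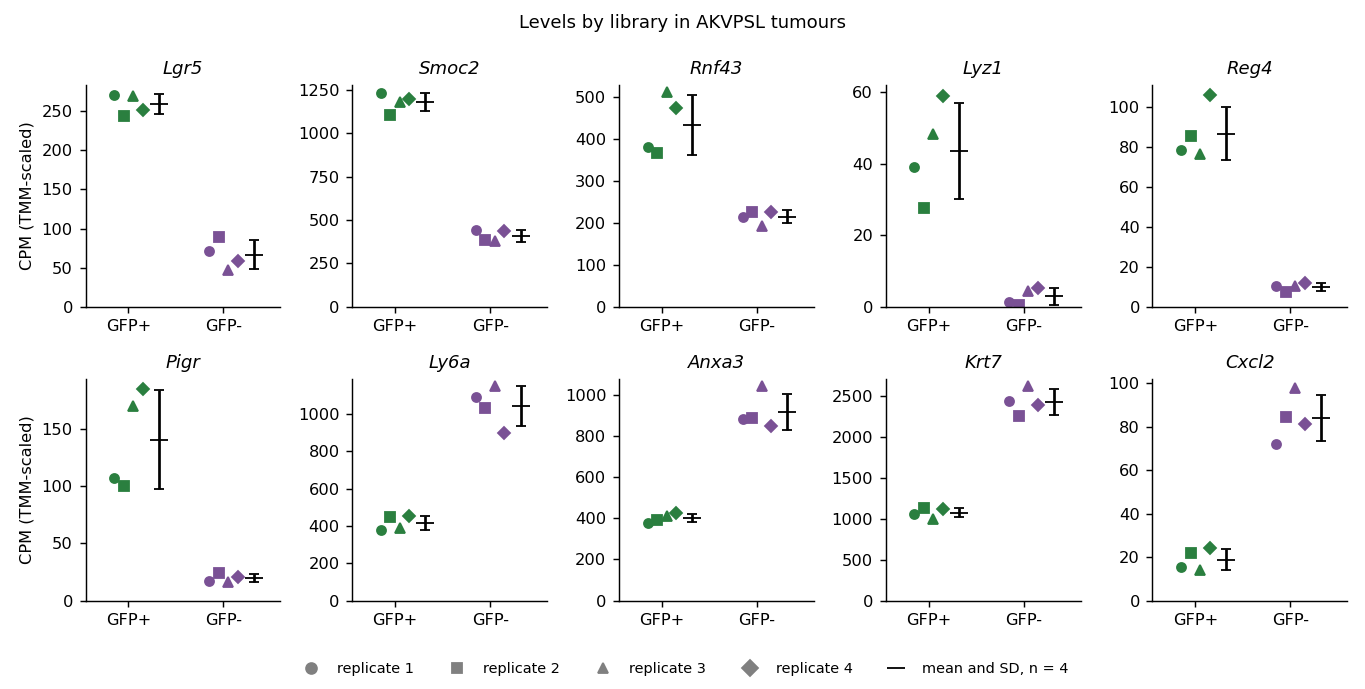
Level in CPM (y axis, from 0) of 10 genes in each library, GFP+ in green and GFP- in purple, with the marker shape giving the replicate number and the bars the mean and SD of 4 libraries. Lgr5, Smoc2, Rnf43, Lyz1, Reg4 and Pigr lie above the GFP- values in all 4 GFP+ libraries, and Ly6a, Anxa3, Krt7 and Cxcl2 lie below them.

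Rnf43, Znrf3 and Nkd1, feedback inhibitors of WNT signalling, were higher in GFP+ cells. Rnf43 and Znrf3 encode membrane ubiquitin ligases that remove WNT receptors and are themselves held back by R-spondin and Lgr5. Rnf43 stood at 381.8, 366.4, 512.9 and 475.4 CPM in GFP+ and 214.0, 227.2, 192.8 and 225.7 CPM in GFP- libraries (log2 fold change 1.01 ± 0.13, edgeR adjusted p = 0.00032), and Znrf3 at 123.5 to 162.1 and 51.8 to 85.6 CPM (0.97 ± 0.15). The sorts do not overlap for either gene. Nkd1, an inhibitor that binds Dishevelled, stood at 1771.3 to 2109.2 CPM in GFP+ and 1046.4 to 1419.9 CPM in GFP- libraries (0.71 ± 0.12). Tnfrsf19, a receptor of the TNF family and known WNT target, rose by 0.85 ± 0.12, and Prox1, a homeobox factor of intestinal tumours, by 1.16 ± 0.18. With the length correction Znrf3 and Prox1 stood at 0.61 and 0.76. Across the WNT feedback and target list 13 of 24 members rose, 1 fell and 10 were not called (median log2 fold change 0.41). With the length correction 12 rose and 1 fell (median 0.33). Dkk3, of the Dickkopf family, fell from 5.18 to 11.5 CPM to 0.66 to 3.77 CPM (-1.74 ± 0.47). Myc, a transcription factor of cell growth that WNT activates in the gut, stood at 266.3 to 323.5 and 241.8 to 359.8 CPM, with overlapping ranges (-0.02 ± 0.13, edgeR adjusted p = 0.899).

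Paneth cells are secretory neighbours of the crypt stem cells and release lysozyme and other antimicrobial proteins. Lyz1 (chromosome 10, 117287795 to 117292868), the Paneth cell lysozyme, had 1 of the largest rises, with 39.1, 27.7, 48.4 and 59.0 CPM in GFP+ and 1.32, 0.617, 4.51 and 5.40 CPM in GFP- libraries. Replicates 3 and 4 were the highest of their sort in both populations, and the log2 fold change was 3.88 ± 0.58 (edgeR adjusted p = 0.00123). Lyz2, the neighbouring and closely related lysozyme gene of macrophages, went the other way (18.4 to 116.6 against 160.3 to 1295.9 CPM), and reads that fit both genes could not be counted for either. Ang4, an antimicrobial ribonuclease, stood at 4.67, 3.33, 8.97 and 8.12 CPM against 0.0644, 0.332, 1.21 and 0.755 CPM (3.42 ± 0.62). Mmp7, the protease that activates Paneth cell defensins, stood at 608.5 to 904.4 CPM in GFP+ and 210.2 to 263.3 CPM in GFP- libraries (1.62 ± 0.14). Wnt3, the WNT ligand that Paneth cells supply to stem cells, rose from a mean of 0.137 to 0.954 CPM (2.74 ± 0.38), and Itln1, a lectin, by 1.41 ± 0.26. Of the 15 genes listed 8 could be tested; 6 rose and none fell, with a median of 1.72. With the length correction all 8 rose, at a median of 1.94. The tested genes leave out the defensins, the products that define a mature Paneth cell: Defa3 and Defa5 had 0 counts in all 8 libraries, where 3 counts over a sort would be 0.0233 CPM in GFP+ and 0.0297 CPM in GFP-. Defa30 had 27 counts over the GFP+ and 2 over the GFP- libraries, and Defa24 had 10 and 1.

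Other secreted lectins and defence genes followed Lyz1. Reg4 (chromosome 3, 98222138 to 98236748), a lectin of secretory cells of the colon, stood at 78.4, 85.4, 76.4 and 105.7 CPM in GFP+ and at 10.3, 7.36, 10.2 and 11.7 CPM in GFP- libraries (3.13 ± 0.16, edgeR adjusted p = 1.32e-05). Pigr, the receptor that carries IgA across the epithelium, stood at 106.7, 99.9, 169.8 and 185.0 CPM against 17.5, 24.1, 16.2 and 20.2 CPM (2.85 ± 0.23, edgeR adjusted p = 5.43e-05). For both genes the lowest GFP+ library was several-fold above the highest GFP- library. Reg3g, a lectin that kills Gram-positive bacteria, rose by 2.08 ± 0.25 and Duox2, an oxidase that makes hydrogen peroxide, by 1.65 ± 0.35. Nos2, the inducible nitric oxide synthase, which macrophages also make, fell (0.212 to 0.911 against 1.55 to 3.30 CPM, -2.09 ± 0.48). Of the 8 tested members of the Reg lectin and antimicrobial list, 4 rose and 1 fell, with and without the length correction, at medians of 1.24 and 1.25.

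Goblet cell genes rose as well, from low to moderate levels. Tff3, the trefoil peptide that goblet cells secrete with mucus, stood at 13.8, 15.6, 11.4 and 22.2 CPM in GFP+ and 2.67, 1.90, 3.51 and 2.66 CPM in GFP- libraries (2.54 ± 0.25, edgeR adjusted p = 0.000107). Spink4, a protease inhibitor of goblet cells, stood at 129.2, 148.5, 107.0 and 176.4 CPM against 37.2, 47.6, 35.7 and 27.1 CPM (1.93 ± 0.19). Guca2a, the precursor of guanylin, rose from 2.06 to 2.56 CPM to 11.4 to 17.2 CPM (2.60 ± 0.18). Upstream of these genes stand the factors Atoh1, which commits progenitors to a secretory fate, and Spdef, which drives goblet and Paneth cell maturation. Atoh1 rose from 0.142 to 0.391 CPM to 0.99 to 2.02 CPM (2.33 ± 0.37) and Spdef from 15.1 to 23.4 CPM to 26.4 to 42.4 CPM (0.85 ± 0.18). Of 19 goblet cell genes tested 10 rose and none fell (median log2 fold change 0.71), against 9 and none with the length correction (median 0.87). Without GFP+ replicate 4, 7 of 20 tested rose and 1 fell (median 0.58), and without GFP+ replicate 2, 8 rose and none fell. Clca1, an abundant product of mature goblet cells, was at 1.04 and 1.12 CPM on average and did not pass the test (-0.09).

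Most mucin genes that passed the test rose. The gel-forming Muc2 stood at 11.0, 13.7, 18.6 and 26.4 CPM in GFP+ and 2.29, 2.14, 5.73 and 4.25 CPM in GFP- libraries (2.27 ± 0.37). Its call ended when all 16 libraries of the series entered the fit (2.31, edgeR adjusted p = 0.0624). The transmembrane mucins Muc1, Muc4 and Muc13 rose by 1.36 ± 0.14, 1.02 ± 0.22 and 2.19 ± 0.52 (Muc4 0.51 with the length correction), whereas Muc16, a transmembrane mucin known as CA125, fell from 1.38 to 2.60 CPM to 0.194 to 0.475 CPM (-2.65 ± 0.34). On the log2(RPKM + 1) scale the Muc16 difference was -0.08 (limma adjusted p = 0.1). In all, 4 of 9 mucins rose and 1 fell; with the length correction 4 rose and 2 fell. A4gnt, the glycosyltransferase that caps gland mucins with GlcNAc, stood at 4.55, 4.94, 3.73 and 7.05 CPM against 0.451, 0.902, 0.130 and 0.675 CPM (3.23 ± 0.42). The gastric genes Pgc, for pepsinogen C, and Gkn3, a gastrokine of gland neck cells, rose by 1.35 ± 0.13 and 1.35 ± 0.16. The trefoil peptide of gastric surface cells, Tff1, fell from 59.1 to 131.7 CPM to 12.4 to 30.8 CPM (-2.42 ± 0.36). Of 14 gastric genes tested 4 rose and 2 fell, also with the length correction. With replicates 1 and 2 alone 4 rose and 4 fell.

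Remaining lineages of the epithelium differed in direction. Of 25 enteroendocrine genes 6 could be tested, of which 2 rose and 3 fell (median log2 fold change -0.54), also with the length correction (median -0.46). Tph1, the serotonin-producing hydroxylase that mast cells also make, had 2 counts over the GFP+ and 130 over the GFP- libraries, and Nts, for neurotensin, 8 and 179; both fell. Insm1, a factor of endocrine progenitors, stood at 37.5 to 44.1 and 21.2 to 33.1 CPM (0.52 ± 0.14), and Cpe, a peptide hormone-processing enzyme that other cells also make, fell from 290.0 to 491.6 CPM to 79.5 to 178.4 CPM (-1.6 ± 0.28). The Insm1 call ended with replicates 3 and 4 alone (0.61, edgeR adjusted p = 0.0802). The other rise, of Isl1, was called with overlapping libraries (0.70 ± 0.25, edgeR adjusted p = 0.045). The Isl1 call ended without any 1 of GFP+ replicates 2, 3 and 4 or GFP- replicates 1, 3 and 4 (0.56 to 0.76), with either replicate pair alone (0.69 and 0.75) and with all 16 libraries in the fit (0.74). Most hormone genes, among them Gcg, Cck, Sct and Gip, had 10 or fewer counts in each sort and were not tested. Of 15 tuft cell genes 12 fell and none rose (median log2 fold change -1.68; 12 also with the length correction, median -1.58). Dclk1, a kinase that marks tuft cells, fell from 1.67 to 2.42 CPM to 0.212 to 0.872 CPM (-2.09 ± 0.39; -1.38 with replicates 3 and 4 alone). Trpm5 and Pou2f3, the taste-signalling channel and the master factor of tuft cells, did not pass the test (-0.58, edgeR adjusted p = 0.0987, and -0.25, edgeR adjusted p = 0.572). Members that leukocytes also express were among the falls, such as Hpgds (-2.57 ± 0.39), Alox5ap (-2.61 ± 0.44) and Plcb2 (-2.61 ± 0.45). Summed macrophage markers moved the same way (118.0 to 411.5 CPM in GFP+ and 767.7 to 4116.1 CPM in GFP- libraries), and their part in the tuft cell list was not tested.

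Absorptive genes were scarce in both sorts: 15 of 24 were too low to test, and Apoc3, Slc26a3 and Slc15a1 had 0 counts in all 8 libraries. Anpep, the brush border aminopeptidase N, stood at 203.2, 157.7, 166.6 and 177.4 CPM in GFP+ and 61.8, 65.0, 70.1 and 69.3 CPM in GFP- libraries (1.41 ± 0.10, edgeR adjusted p = 2.72e-05), and Guca2b, for uroguanylin, rose by 2.45 ± 0.38. Dpp4, another brush border peptidase, fell from 3.85 to 5.01 CPM to 0.212 to 1.11 CPM (-2.76 ± 0.40). Of 9 tested members 2 rose and 4 fell, and with the length correction 2 rose and 1 fell. The falls numbered 1 without GFP- replicate 3 and 2 without GFP+ replicate 2 or GFP+ replicate 4. Transcription factors that set intestinal identity were on the whole higher in GFP+ cells, with 9 of 16 that rose and 1 that fell (median 0.55; 9 and 1 with the length correction, median 0.47; 9 and 2 with the replicate block). Hnf4a stood at 144.7 to 165.2 and 69.8 to 113.4 CPM (0.74 ± 0.14), Hnf4g at 3.89 to 5.15 and 0.911 to 2.3 CPM (1.62 ± 0.29), and Gata6, a factor of small intestinal and gastric epithelium, rose by 0.89 ± 0.13. Isx, a homeobox factor of the intestine, rose from 0.095 to 0.193 CPM to 0.702 to 2.36 CPM (3.36 ± 0.46). Vdr, the vitamin D receptor, fell (-0.73 ± 0.16). Cdx2, the caudal factor of the gut, stood at 38.6 and 31.0 CPM on average and missed the threshold (0.31, edgeR adjusted p = 0.0833). Of the colon-specific factors Hoxb13, Hoxd12 and Hoxd13 had 0 counts in all 8 libraries.

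Genes of fetal and regenerating epithelium were lower in GFP+ cells. Ly6a (chromosome 15, 74994877 to 74998031) stood at 379.9, 448.9, 389.3 and 450.7 CPM in GFP+ and 1089.8, 1029.5, 1148.4 and 899.4 CPM in GFP- libraries. The sorts lie far apart relative to their spread (log2 fold change -1.32 ± 0.11, edgeR adjusted p = 5.43e-05). S100a6, a calcium-binding protein, stood at 1036.4, 1237.2, 991.3 and 1217.7 CPM against 2837.2, 3190.3, 3614.5 and 2405.7 CPM (-1.43 ± 0.14). The simple keratin Krt7, of ductal epithelia, stood at 1002.6 to 1133.0 and 2254.3 to 2631.3 CPM (-1.17 ± 0.10), and the annexins Anxa2 and Anxa3 at 768.6 to 898.2 against 1663.6 to 2205.6 CPM (-1.20 ± 0.12) and 379.1 to 425.0 against 850.7 to 1044.4 CPM (-1.19 ± 0.10). Of the 16 members 12 fell and 1 rose (median log2 fold change -1.19), and with the length correction 11 fell and 1 rose (median -1.0; median relative length 0.558). The member that rose was Tm4sf4, a tetraspanin-like membrane protein, from 0.0644 to 0.38 CPM to 1.13 to 3.48 CPM (3.11 ± 0.52). Clu, for clusterin, often used to mark revival stem cells, did not pass the test: it stood at 4942.3, 5318.4, 8965.9 and 7805.7 CPM in GFP+ and 4466.8, 3841.0, 6307.6 and 5442.3 CPM in GFP- libraries, with replicates 3 and 4 highest in both sorts (0.43 ± 0.21, edgeR adjusted p = 0.127). With the replicate block 13 members fell and 2 rose. Summed macrophage, fibroblast and antigen-presenting cell markers were also lower in every GFP+ library than in any GFP- library, and GFP- replicate 3, highest in macrophage markers, held the highest GFP- level of 10 of the 16 members. The part of these cells was not tested; without GFP- replicate 3, 12 members fell and 1 rose (median -1.08).

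Squamous epithelial genes fell with them. Sprr1a, a protein of the cornified envelope, stood at 53.8, 70.5, 118.2 and 99.3 CPM in GFP+ and 266.0, 322.9, 497.8 and 389.9 CPM in GFP- libraries (-2.11 ± 0.27, edgeR adjusted p = 0.000477). Krt16, a keratin of stressed epidermis, fell from 4.70 to 6.33 CPM to 0.238 to 0.872 CPM (-3.36 ± 0.33), and Sfn, the 14-3-3 protein of stratified epithelium, from 50.7 to 61.6 CPM to 25.9 to 30.0 CPM (-1.0 ± 0.10). Of 13 tested members 9 fell and none rose (median -1.41; 7 with the length correction, median -1.14), while Krt4, at 115.3 and 117.5 CPM on average, did not pass the test. Sprr2h and Cpa4 had the largest falls of the ranked genes. Cpa4, a carboxypeptidase, stood at 0.0943, 0.0, 0.0638 and 0.0792 CPM against 7.18, 9.69, 3.51 and 3.26 CPM. The general epithelial list stayed near 0, with 4 of 22 members that rose, 5 that fell and a median of -0.05 (3, 2 and 0.09 with the length correction). The falls numbered 2 without GFP- replicate 3 and 3 without GFP- replicate 4; Krt19 fell by 1.02 ± 0.10 on the log2 scale and Grhl2, a factor that maintains epithelial junctions, rose by 0.72 ± 0.11 (0.36 with the length correction).

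YAP-TEAD targets, which rise in regenerating gut, were split: 10 of 22 fell and 5 rose (median -0.41; 12 and 3 with the length correction, median -0.46). Igfbp3, an IGF-binding protein, fell from 517.3 to 694.8 CPM to 163.1 to 252.5 CPM (-1.57 ± 0.16), Nt5e, the ectonucleotidase CD73, from 7.59 to 12.9 CPM to 0.519 to 2.34 CPM (-2.84 ± 0.38) and Gadd45a, a stress protein, by 0.96 ± 0.15. Rbms3, an RNA-binding protein, and Ptpn14, a phosphatase that restrains YAP, rose by 1.15 ± 0.12 and 0.92 ± 0.15, and by 0.75 and 0.41 with the length correction. Without GFP- replicate 1, 8 targets fell and 3 rose. Fibroblasts also express several targets, and fibroblast markers moved the same way (196.2 to 1050.0 CPM in GFP+ and 1417.7 to 2915.8 CPM in GFP- libraries); their part was not tested.

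Among genes with at least a 2-fold change and no overlap between sorts, the largest gains in mean CPM were those of Thbs1 and Trf. Thbs1, the adhesive glycoprotein thrombospondin 1, stood at 3302.8, 3105.2, 4538.0 and 2895.1 CPM in GFP+ and 1513.7, 1543.0, 993.8 and 1557.2 CPM in GFP- libraries (1.30 ± 0.18). Trf, the iron carrier transferrin, stood at 2681.4, 2922.9, 3382.0 and 2751.6 CPM against 1210.8, 1203.5, 1534.0 and 1206.8 CPM (1.19 ± 0.12), and Alb, albumin, at 513.0, 506.5, 638.9 and 507.1 CPM against 261.9, 262.1, 219.9 and 197.9 CPM (1.20 ± 0.13). For all 3 genes every GFP+ library lay above every GFP- library, which the ranking required of its genes. Mug1, a murinoglobulin that traps proteases, rose by 2.22 ± 0.22, Cfi, the complement regulator factor I, by 1.54 ± 0.15, and Agt, angiotensinogen, by 2.51 ± 0.17 from 6.38 to 10.4 CPM to 42.1 to 60.9 CPM. The 12 largest fold rises among genes whose log2 CPM averaged 1 or more also hold Stac, an adaptor of muscle and neurons (24.0 to 38.8 against 2.90 to 3.89 CPM, 2.98 ± 0.19), Sema4g, a semaphorin (2.91 ± 0.31), Ptprn2, a protein of secretory granules (2.87 ± 0.33), and Slc10a5, a member of the bile acid transporter family (2.80 ± 0.41). The splicing factor Srrm2 rose by 1.05 ± 0.17 (0.62 with the length correction). By the same rule the largest losses in mean CPM were those of S100a6, Krt7 and Tmsb4x, the actin-binding peptide thymosin beta 4 (434.8 to 553.6 against 1411.0 to 2666.3 CPM, -1.85 ± 0.20).

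Signalling lists were read from ligand to target. In the ERBB family, which receives EGF-type growth signals, 3 of 13 members rose and 4 fell (median log2 fold change 0.08; 4 and 3 with the length correction, median -0.04). The rises were of Erbb3, a receptor of neuregulins, and of the receptor inhibitors Lrig1 and Errfi1 (the last not called with replicates 3 and 4 alone, at 0.47), and the ligands Areg, Ereg and Nrg1 and the receptor Egfr fell. Nrg1, a ligand of Erbb3 that stroma also makes, fell from 1.32 to 2.47 CPM to 0.118 to 0.475 CPM (-2.99 ± 0.41), and Ereg by 1.99 ± 0.41. Areg stood at 112.4 to 134.9 and 153.8 to 240.0 CPM (-0.60 ± 0.14); its call ended with the length correction (-0.33, edgeR adjusted p = 0.082) and when all 16 libraries entered the fit (-0.57, edgeR adjusted p = 0.234). Downstream, 9 of 17 MAPK output genes rose and 1 fell (median log2 fold change 0.41; 7 and 1 with the length correction, median 0.23). Etv5, an ETS factor, stood at 301.5, 258.0, 296.6 and 255.7 CPM in GFP+ and 139.2, 133.7, 120.8 and 129.2 CPM in GFP- libraries (1.09 ± 0.10, edgeR adjusted p = 6.47e-05). The feedback inhibitors Spry4 and Spred1 rose by 0.70 ± 0.15 and 0.52 ± 0.09 (Spred1 0.21 with the length correction). With replicates 3 and 4 alone 5 output genes rose and 1 fell. Emp1, a membrane protein, was the member that fell (653.7 to 903.5 against 1523.3 to 1797.9 CPM, -1.06 ± 0.12). The phosphatase Dusp6 stood at 460.0 and 411.4 CPM on average and did not pass the test (edgeR adjusted p = 0.204).

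BMP signals come in the healthy gut from the stroma and oppose stem cell fate. Id1, Id2 and Id3, inhibitors of differentiation that BMP induces, fell in GFP+ cells. Id1 stood at 4.24 to 7.17 and 11.8 to 17.8 CPM (-1.38 ± 0.22), Id2 at 66.6 to 73.8 and 119.0 to 139.4 CPM (-0.90 ± 0.09) and Id3 at 5.28 to 7.21 and 14.5 to 18.6 CPM (-1.40 ± 0.15), without overlap. Id4 and Atoh8 rose, by 0.52 ± 0.16 and 1.02 ± 0.27, so of 9 target genes 5 fell and 2 rose (median -0.38), a count that was the same with the length correction. The Id4 call ended without GFP+ replicate 1 (0.41, edgeR adjusted p = 0.0682). Fibroblast and endothelial markers also fell (list medians -2.08 and -3.02). GFP- replicate 4 held the highest GFP- level of 5 of the 9 target genes and of 13 of 16 fibroblast genes. The part of these cells in the BMP targets was not tested. Among ligands, receptors and antagonists, Bmp7 rose from 41.0 to 75.0 CPM to 104.3 to 132.8 CPM (0.96 ± 0.16), and the transducer Smad5 rose by 0.72 ± 0.14 (0.38 with the length correction). Of 12 such genes 5 rose and 2 fell, and with the length correction 3 rose and 2 fell.

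Of 19 TGF-beta pathway genes 9 fell and 1 rose (median -0.52; 11 and none with the length correction, median -0.66). The ligand Tgfb1 fell by 0.83 ± 0.15, Pmepa1, a feedback inhibitor, from 108.4 to 143.4 CPM to 64.8 to 74.4 CPM (-0.82 ± 0.11), the cell cycle inhibitor Cdkn1a from 81.9 to 157.9 CPM to 28.9 to 43.4 CPM (-1.55 ± 0.20), and Tgfbi, a matrix protein, from 62.0 to 173.8 CPM to 10.4 to 23.5 CPM (-2.67 ± 0.38). In the mesenchymal (EMT) list 7 of 9 genes fell and 1 rose (median -2.25; 7 and none with the length correction, median -2.26). Vim, the intermediate filament of mesenchymal cells, fell from 294.7 to 397.7 CPM to 23.6 to 66.8 CPM (-2.97 ± 0.30). Fn1, fibronectin, rose by 0.62 ± 0.22, with overlapping libraries; its call ended with the length correction (0.22), without GFP+ replicate 3 (0.44) and without any 1 of GFP+ replicate 4 or GFP- replicates 1, 2 and 3 (0.55 to 0.62). Collagens of fibroblasts fell beside these genes (Col1a1, 50.2, 137.4, 123.4 and 296.0 CPM against 691.1, 425.0, 651.1 and 860.0 CPM, -2.12 ± 0.47), and the part of fibroblast RNA in either list was not tested.

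Notch decides between absorptive and secretory fates by contact between neighbours. Its effector Hes1 stood at 105.0 and 117.8 CPM on average and did not pass the test (-0.16, edgeR adjusted p = 0.201). The feedback regulator Nrarp fell from 22.1 to 28.3 CPM to 11.1 to 15.5 CPM (-0.88 ± 0.14). Heyl and Hey1, effectors that vessels and pericytes also express, fell by 2.76 ± 0.47 and 2.65 ± 0.60, and the Hey1 call ended with replicates 3 and 4 alone (-1.15, edgeR adjusted p = 0.155). The receptor Notch3 rose by 0.87 ± 0.19 (0.50 with the length correction). Of 16 members 2 rose and 5 fell, a share of calls near the 42.7% of all genes tested. With the length correction 1 rose and 7 fell, and with replicates 3 and 4 alone 4 rose and 3 fell. Among Eph receptors Ephb2, a WNT target that positions crypt cells, rose from 92.5 to 126.9 CPM to 146.8 to 202.8 CPM (0.69 ± 0.13); 3 of 14 members of that family rose and 1 fell, and with the length correction 2 and 1.

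Interferon and inflammatory genes were lower in GFP+ cells, and their promoters are shown because both lists carry a known response element more often than other genes. Interferons act through IRF and STAT factors that bind the interferon-stimulated response element (ISRE), and inflammatory signals act in part through NF-kappa-B. The ISRE was searched as GAAA, any 2 bases and GAAA, and the NF-kappa-B site as GGGA, any base and TTTCC, on both strands with overlapping matches counted, in RefSeq windows of GRCm38.p6 from 250 bases before to 50 bases after a start site. Such a window was matched for 11986 of the genes tested. The ISRE letters occurred in 9 of 16 interferon-stimulated genes with a window (56.25%), in 4 of 14 class I presentation genes (28.57%) and in 3.59% of all genes. The NF-kappa-B letters occurred in 7 of 19 inflammatory mediators (36.84%) and in 0.53% of all genes. These genes belong to the lists because they answer such signals, so the shares describe the lists and not the sort. Genes with the letters differed in their calls: of the 9 interferon-stimulated genes that hold them 4 fell and 5 were not called, and of the 4 class I genes 1 fell, 1 rose and 2 were not called. Of the 7 inflammatory mediators with the NF-kappa-B letters 6 fell and 1 was not called. For comparison, the TCF/LEF letters CTTTGAT occurred in 2 of 17 genes of the WNT list (11.76%) and in 3.33% of all genes. The 250 bases before the start site are printed below 5′ to 3′ on the gene's strand, with the matched letters in capitals, for 4 genes with the ISRE that fell, Isg15 at chr4:156200819-156201068 (- strand), Ifit3 at chr19:34583279-34583528 (+ strand), Oas1a at chr5:120907526-120907775 (- strand) and B2m at chr2:122147437-122147686 (+ strand), and for 2 genes with the NF-kappa-B site that fell, Cxcl2 at chr5:90903649-90903898 (+ strand) and Nfkbia at chr12:55492648-55492897 (- strand).
Isg15: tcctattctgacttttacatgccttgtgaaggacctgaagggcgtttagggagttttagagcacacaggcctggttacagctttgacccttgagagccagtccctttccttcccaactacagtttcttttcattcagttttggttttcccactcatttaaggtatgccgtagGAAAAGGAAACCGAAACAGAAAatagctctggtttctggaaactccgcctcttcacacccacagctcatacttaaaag
Ifit3: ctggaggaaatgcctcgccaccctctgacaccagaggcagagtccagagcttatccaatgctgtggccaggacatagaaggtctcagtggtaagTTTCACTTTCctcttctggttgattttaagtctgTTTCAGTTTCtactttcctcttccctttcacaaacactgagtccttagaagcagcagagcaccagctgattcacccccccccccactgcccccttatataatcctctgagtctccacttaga
Oas1a: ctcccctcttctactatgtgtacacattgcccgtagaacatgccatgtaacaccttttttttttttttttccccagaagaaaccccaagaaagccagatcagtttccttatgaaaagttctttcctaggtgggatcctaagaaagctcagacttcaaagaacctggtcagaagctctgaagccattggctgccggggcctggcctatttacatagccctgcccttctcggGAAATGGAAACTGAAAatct
B2m: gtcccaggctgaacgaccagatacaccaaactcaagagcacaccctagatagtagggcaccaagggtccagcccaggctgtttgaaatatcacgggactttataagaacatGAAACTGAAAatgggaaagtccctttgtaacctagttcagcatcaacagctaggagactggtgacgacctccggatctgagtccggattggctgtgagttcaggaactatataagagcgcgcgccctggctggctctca
Cxcl2: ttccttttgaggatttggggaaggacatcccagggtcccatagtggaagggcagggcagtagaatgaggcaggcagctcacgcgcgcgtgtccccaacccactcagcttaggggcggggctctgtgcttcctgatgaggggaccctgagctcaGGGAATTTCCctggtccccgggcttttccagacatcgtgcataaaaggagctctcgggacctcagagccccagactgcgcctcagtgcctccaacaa
Nfkbia: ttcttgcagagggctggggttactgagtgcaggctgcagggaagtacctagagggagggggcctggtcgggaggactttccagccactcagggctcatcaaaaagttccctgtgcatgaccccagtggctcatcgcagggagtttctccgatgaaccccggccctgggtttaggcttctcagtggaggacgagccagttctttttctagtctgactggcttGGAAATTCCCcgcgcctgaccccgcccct
Isg15 holds 3 overlapping matches from 78 bases before the start site, Oas1a 2 overlapping matches from 20 bases before it, and Ifit3 2 separate matches on the opposite strand. A match describes letters and is not a bound site.

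Of the 25 interferon-stimulated genes 13 fell and none rose, with a median log2 fold change of -0.93 (14 with the length correction, median -0.90). Ifit3, an antiviral protein that binds foreign RNA, stood at 0.212, 0.42, 0.606 and 0.674 CPM in GFP+ and 1.87, 2.33, 4.17 and 2.03 CPM in GFP- libraries (-2.46 ± 0.40, edgeR adjusted p = 0.00116). Isg15, a ubiquitin-like modifier, stood at 2.85, 4.75, 7.98 and 4.36 CPM against 7.95, 16.3, 21.8 and 12.2 CPM, so GFP+ replicate 3 just overlapped GFP- replicate 1 (-1.55 ± 0.36, edgeR adjusted p = 0.00675). Oas1a, an activator of RNase L, stood at 1.63 to 2.69 and 3.48 to 8.42 CPM (-1.23 ± 0.31). Irf7, a factor that amplifies the interferon response, fell from 19.7 to 36.3 CPM to 6.88 to 11.5 CPM (-1.43 ± 0.22). The fall did not extend to every part of the response: the transducer Irf9, at 32 against 28.3 CPM on average, did not pass the test, nor did the RNA sensors Ddx58 and Ifih1, although the latter pair also hold the ISRE letters. GFP- replicate 3, the library with the highest macrophage sum, held the highest GFP- level of 20 of the 25 genes.

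MHC class I presentation genes fell in 12 of 16 members and rose in 1 (median -1.25; 10 and 1 with the length correction, median -0.97). GFP- replicate 3, highest in macrophage markers, held the highest GFP- level of 14 of the 16 members. Without that library 10 fell and 1 rose (median -1.01). B2m, the light chain of class I molecules, stood at 176.7, 211.9, 169.6 and 169.2 CPM in GFP+ and 359.0, 508.2, 510.6 and 318.9 CPM in GFP- libraries (-1.22 ± 0.16, edgeR adjusted p = 0.000435). Psmb8, a catalytic subunit of the immunoproteasome, fell from 11.4 to 29.2 CPM to 0.613 to 1.70 CPM (-3.92 ± 0.40), and Nlrc5, the transactivator of class I genes, from 2.90 to 5.18 CPM to 0.258 to 0.702 CPM (-3.20 ± 0.34). Erap1, the peptidase that trims class I peptides, rose by 0.53 ± 0.11; its call ended with replicates 3 and 4 alone (0.55, edgeR adjusted p = 0.0554). Reads of the closely related H2-Q and H2-T genes may be split between copies, so H2-Q4 (-2.98) and H2-Q7 (-3.90) are uncertain.

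Inflammatory mediators fell in 17 of 25 members and rose in none (median -0.86; 16 with the length correction, median -0.79). GFP- replicate 3 held the highest GFP- level of 16 of the 25 members, and without it 15 fell (median -0.79). Cxcl2, a chemokine that attracts neutrophils, stood at 15.4, 22.0, 14.2 and 24.0 CPM in GFP+ and 72.3, 84.7, 97.8 and 81.5 CPM in GFP- libraries (-2.16 ± 0.18, edgeR adjusted p = 5.43e-05). The sorts lie well apart and replicates within a sort are close. Nfkbia, the inhibitor that NF-kappa-B induces against itself, stood at 139.1, 183.5, 132.6 and 138.9 CPM against 267.4, 313.8, 284.8 and 215.8 CPM (-0.86 ± 0.14). Csf2, the growth factor GM-CSF, fell from 6.32 to 17.1 CPM to 2.33 to 2.77 CPM (-2.31 ± 0.27), Il1a from 14.4 to 26.3 CPM to 1.44 to 5.27 CPM (-2.61 ± 0.35) and Ccl5 from 5.40 to 9.24 CPM to 0.555 to 1.10 CPM (-3.23 ± 0.28). Tnf, Cxcl1 and Icam1, also known NF-kappa-B targets, did not pass the test (0.16, edgeR adjusted p = 0.401, -0.46, edgeR adjusted p = 0.274, and 0.04, edgeR adjusted p = 0.806). Macrophage and dendritic cell markers, given below, moved the same way as the interferon, class I and inflammatory lists, and the share of these cells in the lists was not tested.

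Genes of cell division rose in part. In the mitosis list 14 of 24 members rose and none fell, both without and with the length correction (medians 0.56 and 0.44). Kif11, a spindle motor, stood at 72.8, 71.3, 60.8 and 52.9 CPM in GFP+ and 37.1, 34.2, 20.7 and 28.0 CPM in GFP- libraries (1.10 ± 0.18, edgeR adjusted p = 0.00111), and Cenpf, a kinetochore protein, at 62.9 to 70.1 and 28.2 to 44.1 CPM (0.89 ± 0.14; 0.41 with the length correction). Replicates 1 and 2 had the higher Kif11 level within each sort. Other mitotic genes did not pass the test, among them Ccnb2 (-0.04, edgeR adjusted p = 0.836), Cdc20 (0.16, edgeR adjusted p = 0.30) and Birc5 (-0.36, edgeR adjusted p = 0.152). Of 24 DNA replication genes 1 rose, Pola1, the catalytic subunit of DNA polymerase alpha (36.5 to 53.3 against 21.1 to 32 CPM, 0.72 ± 0.16), and none fell (median 0.06), as with the length correction (median 0.16). With the replicate block 4 rose and 2 fell. In replicates 1 and 2 alone 6 rose, and in replicates 3 and 4 alone 2. Without GFP- replicate 1, 3 rose, and without GFP- replicate 2 or 4, 2. Of 24 ribosome biogenesis genes 3 rose and 3 fell (median -0.09), and with the length correction none rose and 3 fell (median -0.05). Without GFP+ replicate 4, 1 rose.

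Glycolysis and hypoxia genes fell in 11 of 24 members and rose in none (median -0.52; 14 with the length correction, median -0.40). GFP- replicate 3, highest in macrophage markers, held the highest GFP- level of 18 members, and without it 10 fell (median -0.32). With replicates 1 and 2 alone 10 fell (median -0.32). P4ha1, a collagen prolyl hydroxylase that hypoxia induces, fell from 144.3 to 182.8 CPM to 80.7 to 102.6 CPM (-0.84 ± 0.11), the glucose transporter Slc2a1 from 465.3 to 562.4 CPM to 309.7 to 382.9 CPM (-0.60 ± 0.11) and the glycolytic enzymes Aldoa and Eno1 by 0.56 ± 0.10 and 0.61 ± 0.10. Ppargc1a, a coactivator of mitochondrial genes, rose from 10.1 to 20.1 CPM to 39.9 to 56.8 CPM (1.55 ± 0.20). The respiratory chain list depends on gene length and on single libraries: 2 of 23 members rose and 7 fell (median -0.14) without the correction, and 6 rose and 2 fell with it (median 0.14; median relative length 0.456). Without the length correction the falls numbered 1 without GFP- replicate 3, 3 without GFP- replicate 2 and 4 without GFP+ replicate 3. In the cholesterol synthesis list 6 of 21 genes fell and none rose, led by Msmo1, a sterol oxidase (-0.94 ± 0.18); 5 fell with the length correction. The list's median was -0.27, and -0.08 without GFP- replicate 1 and -0.17 without GFP+ replicate 3.

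Secretory stress and p53 responses were also compared. Xbp1, the factor that equips secretory cells with endoplasmic reticulum, stood at 430.5, 387.1, 443.4 and 432.7 CPM in GFP+ and 234.3, 216.1, 227.6 and 209.9 CPM in GFP- libraries (0.93 ± 0.09, edgeR adjusted p = 9.52e-05), and Ern2, its activating sensor in mucus-secreting cells, rose by 1.08 ± 0.22. The stress effectors Ddit3 and Chac1 went the other way, from 31.3 to 51.9 CPM to 17.5 to 24.5 CPM (-0.99 ± 0.17) and from 6.74 to 15.1 CPM to 2.16 to 3.92 CPM (-1.74 ± 0.27). Of 18 such genes 3 rose and 7 fell, and with the length correction 4 and 7. Of 18 p53 targets 7 fell and 1 rose (median -0.24; 7 and none with the length correction), with Bax, which permeabilises mitochondria, at 40.0 to 47.5 and 73.4 to 119.6 CPM (-0.95 ± 0.15; -0.61 with the length correction). Matrix proteases and their regulators fell in 9 of 12 members and rose in 1, also with the length correction; Mmp14, which fibroblasts and macrophages also make, fell from 43.5 to 96.3 CPM to 4.88 to 18.8 CPM (-2.82 ± 0.41), and Plau, the plasminogen activator urokinase, by 1.16 ± 0.16.

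**Figure D4:**
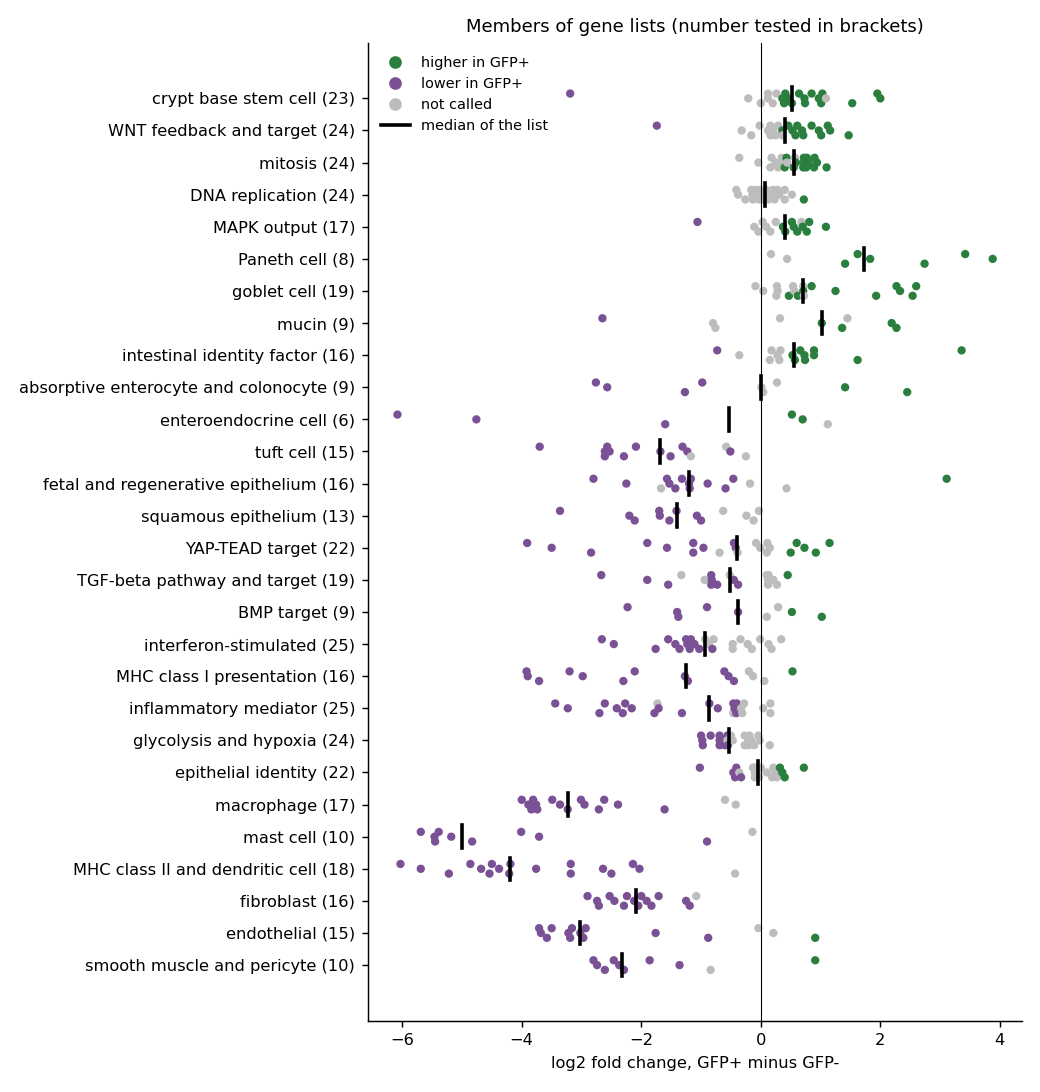
Log2 fold change, GFP+ minus GFP- (x axis), of every tested member of 28 gene lists (y axis), coloured by call, with the list's median as a black bar. Paneth cell, goblet cell and mucin genes lie to the right, fetal, squamous and tuft cell genes to the left, and the macrophage, mast cell, antigen-presenting cell, fibroblast, endothelial and smooth muscle lists have medians from -2.08 to -5.0.

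RNA of leukocytes and stroma was found in both sorts. The summed macrophage, antigen-presenting, mast cell, B cell and fibroblast markers were lower in every GFP+ library than in any GFP- library. The endothelial, smooth muscle and T and NK cell sums overlapped (290.2 to 342.1 against 289.9 to 715.3 CPM for the endothelial list). Gene by gene, 12 of 15 endothelial and 8 of 10 smooth muscle and pericyte genes still fell, and 1 rose in each list. In bulk samples fewer cells of a type and less RNA per cell cannot be told apart. Of 17 macrophage markers 15 fell and none rose (median log2 fold change -3.23). Their summed level was 118.0, 191.0, 295.0 and 411.5 CPM in GFP+ replicates 1 to 4 and 817.1, 767.7, 4116.1 and 2101.8 CPM in GFP- replicates 1 to 4, so GFP- replicates 3 and 4 held several times the level of the other GFP- libraries. C1qb, a complement subunit of macrophages, stood at 4.46 to 25.6 and 85.5 to 413.1 CPM (-3.84 ± 0.66). Antigen-presenting cell genes fell in 17 of 18 members (median -4.20), with H2-Ab1, a class II chain, at 1.6, 3.26, 4.34 and 5.51 CPM against 84.1, 79.2, 128.2 and 78.5 CPM (-4.68 ± 0.35), Ccr7, the homing receptor of migrating dendritic cells, at 2.49 to 2.71 and 12.8 to 18.8 CPM (-2.50 ± 0.17), and the chemokines Ccl17 and Ccl22 at -6.03 ± 0.52 and -4.86 ± 0.49. Mast cell genes fell in 9 of 10 members (median -5.0); their summed level was 12.3 to 22.6 CPM in GFP+ and 42.4, 74.0, 205.8 and 193.9 CPM in GFP- libraries. The mast cell proteases Tpsb2 and Mcpt4 stood at 0.0 to 1.47 against 6.92 to 47.9 CPM and 0.0323 to 0.702 against 5.22 to 19.2 CPM.

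Neutrophil genes fell in 3 of 8 members (median -1.80; 3 with the length correction, 7 with the replicate block), with sums of 10.3 to 35.5 CPM in GFP+ and 39.7 to 99.5 CPM in GFP- libraries. The falls numbered 1 without GFP- replicate 3 or GFP- replicate 4, 5 without GFP- replicate 1 and 6 without GFP+ replicate 4.

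Several defining lymphocyte genes were at or near 0. Cd3g, Prf1, Ncr1 and Nkg7 of T and NK cells and Ms4a1 of B cells had 0 counts in all 8 libraries, Cd3d had 0 counts in GFP+ and 2 in GFP- libraries, and Cd3e 2 and 22. Cd4, which macrophages and dendritic cells can also carry, was at 0.283 to 0.861 and 1.09 to 7.33 CPM (-2.74 ± 0.60), and Il7r, the interleukin 7 receptor, fell by 2.75 ± 0.42. T and NK cell sums were 18.3 to 21.4 CPM in GFP+ and 19.2 to 30.8 CPM in GFP- libraries, most of it from Zap70, a kinase that did not pass the test (18.3 and 17.4 CPM on average). All 3 B cell genes tested fell: Fcrla by 4.80 ± 0.60, Cd22 by 3.41 ± 0.70 and Cd79b by 2.18 ± 0.56 (a call that ended with replicates 1 and 2 alone, at -1.2), with sums of 0.731 to 1.51 and 3.75 to 11.5 CPM. Of stromal lists, fibroblast genes fell in 15 of 16 members (median -2.08), smooth muscle and pericyte genes fell in 8 of 10 and rose in 1 (median -2.33), and endothelial genes fell in 12 of 15 and rose in 1 (median -3.02). With the length correction the same lists had 15, 8 and 12 falls, and the macrophage, antigen-presenting and mast cell lists 15, 17 and 9. Pecam1, the adhesion protein of endothelium, stood at 3.96, 7.98, 2.14 and 3.69 CPM in GFP+ and 55.4, 65.3, 11.5 and 11.8 CPM in GFP- libraries (-3.02 ± 0.68; -2.0 with replicates 3 and 4 alone): GFP- replicates 1 and 2 were high in endothelial genes and replicates 3 and 4 in macrophage and mast cell genes. Vwf, von Willebrand factor, was the endothelial member that rose (66.0 to 113.4 against 32.8 to 78.5 CPM, 0.91 ± 0.27), a call that ended with the length correction (0.51), with replicates 1 and 2 alone (0.27) and without GFP+ replicate 3, GFP+ replicate 4 or GFP- replicate 1 (0.81 to 0.89). Mylk, myosin light chain kinase, rose in the smooth muscle list (0.91 ± 0.18; 0.55 with the length correction). Xist, the RNA that coats the inactive X chromosome of female cells, stood at 2.03, 4.88, 7.59 and 6.70 CPM in GFP+ and 35.3, 49.3, 37.7 and 30.6 CPM in GFP- libraries (-2.86 ± 0.36).

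**Figure D5:**
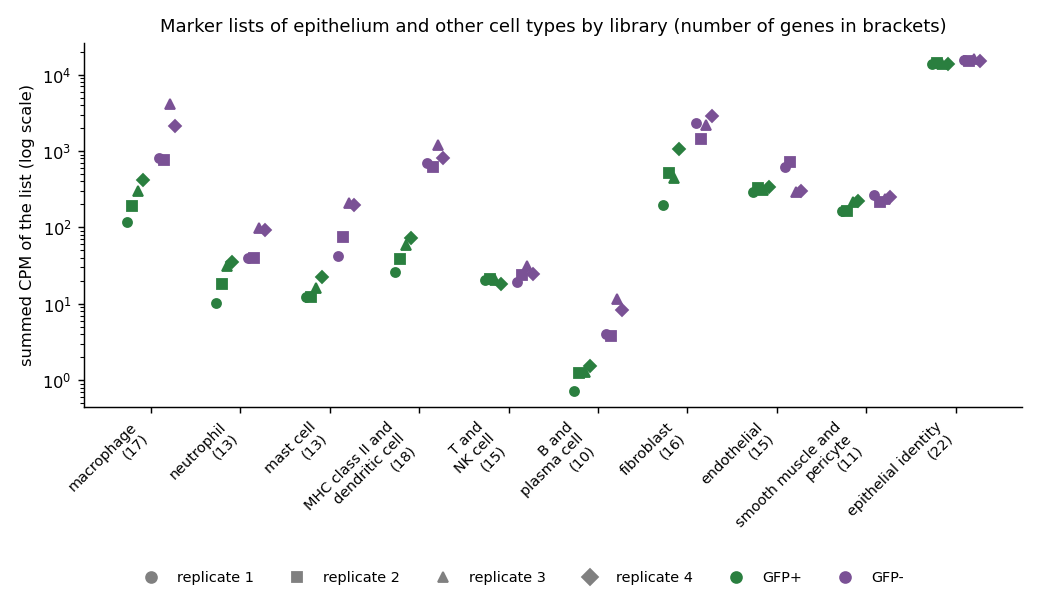
Summed level of each marker list in CPM (y axis, log scale) in every library, GFP+ in green and GFP- in purple, with marker shape for the replicate number. Macrophage, antigen-presenting, mast cell and fibroblast sums are lower in all 4 GFP+ libraries than in any GFP- library, and epithelial sums lie between 13768.3 and 15903.5 CPM in all 8.

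Leukocyte and stromal sums also varied within the GFP+ sort. From replicate to replicate the macrophage and fibroblast sums ran from 118.0 and 196.2 CPM (replicate 1) to 411.5 and 1050.0 CPM (replicate 4). Within the pairs of replicates that the second component parts, the main directions were the same: with replicates 1 and 2 alone 13 stem cell genes rose and 1 fell, 6 Paneth cell genes rose and none fell, and 12 fetal genes fell and 1 rose, and with replicates 3 and 4 alone the counts were 15 and 1, 6 and none, and 11 and 1. Without GFP- replicate 1, the library whose tissue field reads colon, 15 stem cell genes rose and 1 fell, 6 Paneth cell genes rose, 12 fetal genes fell and 1 rose, and 6052 genes were called in all.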

How the data were processed

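RNA of flow-sorted GFP+ and GFP- cells from AKVPSL tumours was sequenced in 8 libraries, 4 of each sort. The authors deposited, per the file headers, a raw count of reads aligning uniquely to each gene model, identified by NCBI Gene ID. They also deposited an RPKM value adjusted by size factors, per the file headers. GSNAP and GRCm38 are named in the submitters' processing notes; no version, annotation or strand setting is given in the sources used here. Overlapping or antisense partners, and near-identical copies, are therefore uncertain. Of 36528 gene IDs 31049 (85.0%) were matched to RefSeq symbols on GRCm38.p6. The rest, with 1.379% to 1.88% of the counts, stayed in the tests.

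Counts were filtered with filterByExpr, scaled by TMM and tested with edgeR 4.0.16 (quasi-likelihood, robust) in R 4.3.3, with p-values adjusted over all genes at 0.05. The standard error is the log2 fold change divided by the square root of F. On simulated data, with 200 of 16347 genes changed, 65% of 2-fold and 96% of 4-fold changes were recovered and 5.33% of calls were false. The simulated counts varied independently, without a length trend or a difference between replicate pairs, and far fewer genes changed than the 42.7% called here. These rates therefore check the fitting steps and do not give the error rate of the 7058 calls. The fit has no replicate block. The labels do not say what a replicate number marks. The same-number correlations of deviations were 0.431, 0.374, 0.118 and 0.286, all above 0.1, so a fit blocked by replicate number was run as an alternative. Across numbers, GFP+ replicate 3 correlated more with GFP- replicate 4 (0.443) and GFP+ replicate 4 with GFP- replicate 3 (0.383). The correlations therefore do not settle whether the numbers pair the sorts. Alternatives included DESeq2 1.42.0, limma 3.58.1 on log2(RPKM + 1), other scalings and filters, and leaving out each library. The length correction and the splits by replicate pair were chosen after seeing the data.

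Named genes are Lgr5, Smoc2, Lyz1, Ly6a and 4 tumour genes, the 12 largest fold changes each way, the 10 largest differences in mean CPM each way with at least 2-fold change, up to 5 called members of each list and up to 2 called against its majority, and 7 defining markers. Some genes of this rule are not reported here. Ranked genes needed an adjusted p under 0.05 and no overlap between sorts, those ranked by fold also an average log2 CPM of 1 or more, and predicted genes were left out. Uncalled members and members beyond this rule, among them Isg15, Oas1a and Nfkbia, and the printed promoters, were chosen after their values were seen. The comparison, its members and the gene lists were chosen with earlier results of these data known.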

Additional observations from a re-analysis of the deposited data

Results flagged for a closer look

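In a group of 4 libraries, a highest or lowest value was singled out where its gap to the nearest other library divided by the group's range exceeded Dixon's 95% critical value. Of 318 groups, for 159 genes named by the rule, 15 met this, and chance flags about 1 in 20 groups.

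GFP- replicate 3 stood apart 6 times. In it H2-Ab1 was at 128.2 CPM (others 78.5 to 84.1), Tmsb4x at 2666.3 CPM (1411.0 to 1585.4), Trf at 1534.0 CPM (1203.5 to 1210.8), Bax at 119.6 CPM (73.4 to 78.6) and Fcrla at 2.99 CPM (1.04 to 1.27), while Thbs1 was lower, at 993.8 CPM (1513.7 to 1557.2). GFP+ replicate 3 was the highest of its sort for Alb at 638.9 CPM (others 506.5 to 513.0), Prox1 at 280.7 CPM (176.6 to 188.1), Slc2a1 at 382.9 CPM (309.7 to 322.0) and Ppargc1a at 56.8 CPM (39.9 to 42.6). GFP+ replicate 4 was the highest for Stac at 38.8 CPM (24.0 to 25.9) and Csf2 at 2.77 CPM (2.33 to 2.36). GFP+ replicate 1 was the lowest for Cdkn1a at 28.9 CPM (41.0 to 43.4) and the highest for Spry4 at 132.3 CPM (101.0 to 106.0). GFP- replicate 1 was the lowest for Tm4sf4, at 0.0644 CPM (0.347 to 0.38).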

How the results depend on the processing

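The count of 7058 genes ran from 4835 (replicates 3 and 4 only) to 8494 (all 16 libraries in the fit), within 1.5 times in every alternative run. DESeq2 called 7785, RLE size factors 7088, library totals 6992, epithelial size factors 7003, the deposited RPKM 7048, a minimum of 1 CPM in 4 libraries 6528 and no filter on low counts 7291. With the replicate block 7594 genes were called, and pairing by replicate number ended no call named by the rule. Counts of list members called also moved when 1 library was left out, in some lists by several calls. Without GFP- replicate 3, falls went from 4 to 1 in the absorptive list and from 5 to 2 in the epithelial list. Without GFP+ replicate 4, falls in the neutrophil list went from 3 to 6 and rises in the goblet cell list from 10 to 7. Leaving out 1 library gave 5525 (without GFP+ replicate 3) to 7335 genes (without GFP- replicate 4), with 2358 to 3722 higher and 2986 to 3613 lower. The length correction gave 5794, and with the replicate block as well 7040. Epcam, at -0.03, changed sign but passed no threshold: 0.00 with all 16 libraries, 0.11 with the length correction with or without the block, 0.02 without the low-count filter, 0.04 with replicates 1 and 2 only, and -0.06 (without GFP+ replicate 2) to 0.02 when 1 library was left out, with 0.00 without GFP+ replicate 3 and 0.02 without GFP- replicate 2 or 3; the cause was not tested.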

Other observations

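Some of the clearest differences lay in genes of no list, chosen here after their values were seen. Klk7, a kallikrein protease of epithelia, stood at 1.79, 2.29, 2.52 and 3.21 CPM in GFP+ and 35.8, 41.1, 34.5 and 26.1 CPM in GFP- libraries (log2 fold change -3.82 ± 0.21, edgeR adjusted p = 1.32e-05). Procr, the endothelial protein C receptor, stood at 23.7, 25.3, 27.2 and 25.6 CPM against 97.1, 99.4, 102.4 and 74.5 CPM (-1.87 ± 0.12). Dach1, a transcriptional regulator, was higher in GFP+, at 24.6, 20.2, 19.6 and 18.4 CPM against 4.51, 5.08, 3.99 and 3.97 CPM (2.24 ± 0.15), as was Slc18a1, a vesicular monoamine transporter, at 63.6, 59.3, 66.6 and 73.1 CPM against 20.7, 21.7, 19.3 and 21.6 CPM (1.66 ± 0.10). No library of a sort overlapped the other for these 4 genes.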
